A study of Mus musculus with 9 samples.

Results

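The 84 genes of the cytosolic ribosome were followed in bulk liver RNA of wild-type C57BL/6J mice (genotype label C57BL/6), in 3 libraries each of the groups labelled Control, DSS and Indirubin. They are the protein-coding genes of the deposited table, which lists 56748 genes, whose symbol is Rps or Rpl with a number, Rplp0, Rplp1, Rplp2 or Rpsa. Of them, 32 belong to the small (40S) and 52 to the large (60S) subunit. The Control group is labelled with water as its treatment. The DSS group is labelled DSS, and the series describes 3 cycles of dextran sulfate sodium, a compound that injures the colon, at 1.8% (w/v) in the drinking water, each cycle a week of DSS and a week without it, with water by mouth every day. The Indirubin group is labelled DSS+Indirubin and received indirubin, an indigo-related plant compound, by mouth at 1 g/kg/day. The series describes colitis as if every mouse had it, and the Control group is taken here as its label gives it. The labels give no age, and no group received indirubin without DSS.

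Each cytosolic ribosome carries the ribosomal proteins in nearly equal numbers, and their genes are transcribed at high rates in almost every cell. Proteins of the 40S subunit surround the mRNA and the decoding centre, and those of the 60S subunit surround the peptidyl transferase centre and the exit tunnel. Their mRNAs typically begin with a terminal oligopyrimidine (TOP) stretch, a C at the cap followed by further pyrimidines, through which mTORC1 and Larp1 control their translation and stability together. The liver, which secretes most plasma proteins, has a large demand for ribosomes.

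The TOP stretch was looked for in RefSeq promoter windows (build GRCm38.p6), which held 64 of the 84 genes. The search asked for a C at the annotated start and a run of at least 5 bases, all C or T, counted from that C on the strand of the gene. The base before the start was not considered. Such a run stood at an annotated start of 13 of the 64 genes (20.3%), of 0 of 69 genes of the mitochondrial ribosome and of 813 of all 27025 genes in the windows (3.01%). A wider search ran from 10 bases before to 10 bases after a start. Away from the start itself, it also required that the base before the C was neither C nor T. It found a run for 53.1%, 37.7% and 26.8% of the genes, in the same order. The windows printed here run from 10 bases before the annotated start through 20 bases from it, 5′ to 3′. They are shown for genes named in the comparisons, to set starts with the run beside starts without it. In the following 5 windows capitals mark the pyrimidine run counted from the start. In each of them the base before the start is also C or T, so the stretch in the genome begins earlier.
Rps27 (chr3:90213629-90213658, minus strand): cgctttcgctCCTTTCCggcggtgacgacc
Rps15a (chr7:118116128-118116157, minus strand): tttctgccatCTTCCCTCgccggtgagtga
Rps6 (chr4:86857348-86857377, minus strand): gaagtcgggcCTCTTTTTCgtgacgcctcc
Rpl15 (chr14:18270967-18270996, minus strand): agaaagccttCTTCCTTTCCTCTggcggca
Rpl38 (chr11:114668570-114668599, plus strand): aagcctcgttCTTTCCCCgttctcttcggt
In the remaining genes no such run was counted from the annotated start, and the capital marks the base at that position.
Rps13 (chr7:116334171-116334200, minus strand): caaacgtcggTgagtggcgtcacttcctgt
Rpl26 (chr11:68901556-68901585, plus strand): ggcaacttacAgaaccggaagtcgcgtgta
Rpl39 (chrX:37085203-37085232, minus strand): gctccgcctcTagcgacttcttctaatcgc
Rps27l (chr9:66946076-66946105, plus strand): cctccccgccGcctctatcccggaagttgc
A missing run says only that these letters are not at this position.

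Library totals were 6514863 to 7944684 counts, of which genes of the mitochondrial genome took 87.5% to 91.3% in Control, 72.4% to 87.7% in DSS and 71.6% to 89.5% in Indirubin. The 569044 to 2132208 nuclear counts of each library were therefore used alone. Levels were scaled by edgeR's TMM method on the 556608 to 2097086 of these counts that lay in the genes tested, and are given as counts per 1e+06 of the scaled library size (CPM). Rows of rRNA genes took 2.65% to 3.40% of nuclear counts in Control, 3.15% to 8.28% in DSS and 2.52% to 15.2% in Indirubin. DSS-2 stood apart from the other libraries on the leading principal component, and 9 of the 84 genes were at 0 counts in it. Of 13 hepatocyte markers fixed for the check, 12 were in the table and none of these was at 0 in any library. In bulk liver, fewer cells of a type and less RNA per cell cannot be told apart. The labels do not say whether the libraries of a group came from separate experiments, so p-values measure the spread between these samples.

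The ribosomal protein genes together took a larger share of nuclear counts in both DSS-exposed groups than in Control. They held 2.31, 2.27 and 2.38% in Control-1 to Control-3. They held 4.43, 3.67 and 3.16% in DSS-1 to DSS-3 and 3.17, 4.40 and 3.59% in Indirubin-1 to Indirubin-3. Every DSS and Indirubin library lay above every Control library, and the DSS and Indirubin libraries overlapped. The means were 2.32% ± 0.0544 in Control, 3.75% ± 0.640 in DSS and 3.72% ± 0.623 in Indirubin (SD, n = 3 each). The ratio was 1.62 for DSS over Control, 1.60 for Indirubin over Control and 0.991 for Indirubin over DSS. As a share of all counts, mitochondrial ones included, these ratios were 2.63, 3.24 and 1.23. The other nuclear counts also differed between the groups. Unprocessed pseudogene rows took 13.04% to 20.96% of nuclear counts in Control, 2.67% to 9.83% in DSS and 2.69% to 12.7% in Indirubin, so that a smaller part of the denominator lay in these rows in every DSS-exposed library. As a share of protein-coding nuclear counts, which leave these rows out, an alternative chosen after seeing the data, the ratios were 1.49, 1.51 and 1.02, and neither DSS-exposed group overlapped with Control.

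Both subunits showed the higher share. The ratio of DSS to Control was 1.68 for the 40S genes and 1.57 for the 60S genes, and that of Indirubin to Control was 1.65 and 1.57. Genes of the mitochondrial ribosome, a separate particle whose 78 listed proteins are also encoded in the nucleus, held 0.192% ± 0.00538 of nuclear counts in Control, 0.208% ± 0.0298 in DSS and 0.197% ± 0.0280 in Indirubin (SD, n = 3 each). The groups overlapped for that particle.

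**Figure D1:**
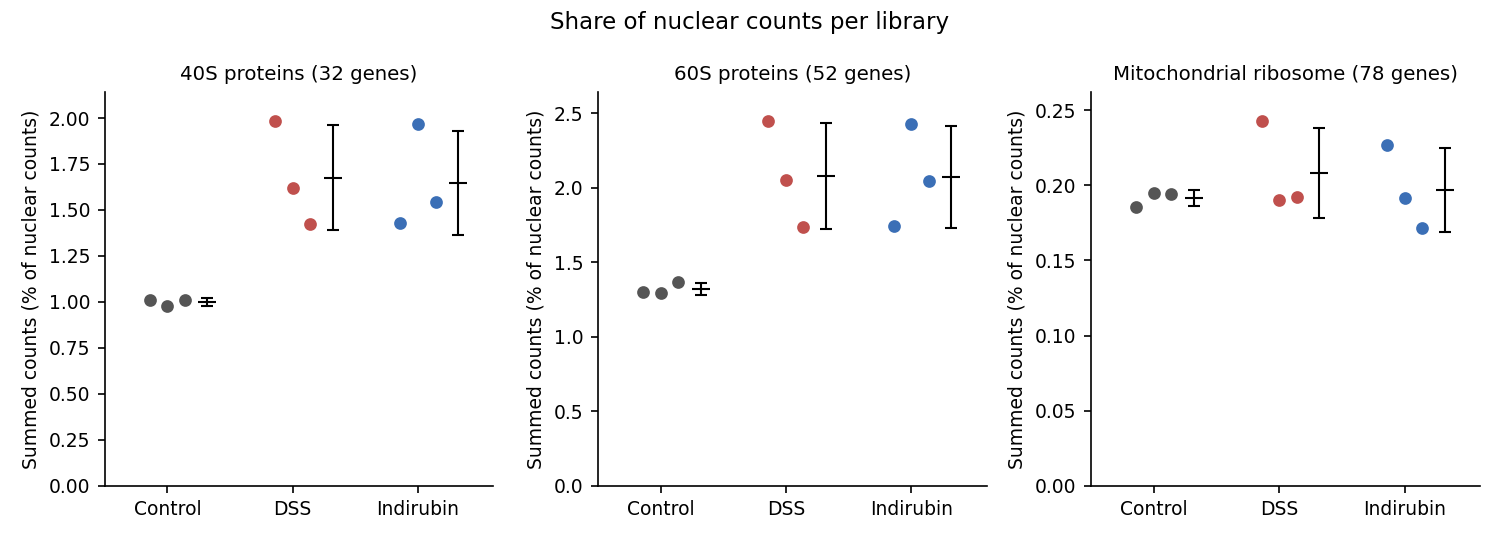
Summed counts as a percentage of nuclear counts in each library, for the 32 genes of the 40S subunit, the 52 genes of the 60S subunit and the 78 genes of the mitochondrial ribosome. Points are libraries, with the mean and SD of each group (n = 3). The DSS and Indirubin points of both cytosolic subunits lie above all Control points, while the groups overlap for the mitochondrial ribosome.

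Of the 84 genes, 78 had enough counts to be tested (31 of the 40S and 47 of the 60S) among 9057 nuclear genes tested. The 6 others were Rpl24 with 7 counts over the 9 libraries, Rps10 with 14, Rpl36al with 13, Rpl3l with 40, Rpl39l with 1 and Rpl10l with 0. Ribosomal protein genes have many processed copies in the genome, and the table held 325 pseudogene rows named for them. Reads of a gene and its near-identical copies may have been divided between them, so that levels of such genes are uncertain. For Rps10, 4 such rows held 1106 counts. The rows named for Rpl17 held 4477 counts against 974 in the gene, those for Rps12 1237 against 1327 and those for Rpl7a 666 against 337. With all pseudogene rows added to the sum, the ratios of the summed share were 1.59, 1.59 and 1.00.

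DSS was compared with Control for the state of the liver after repeated DSS. Of the 78 genes, 73 had a fitted level above Control, where 49% of all genes tested did. For 50 of them all DSS libraries lay above all Control libraries (background 5.96%), and for 0 all lay below (background 7.76%). The median log2 fold change of the members was 0.70, with the middle 50% between 0.49 and 0.90, and the median of all genes was -0.02. In edgeR's quasi-likelihood test, 24 members were higher at an unadjusted p under 0.05 (background 2.84%) and 1, Rpl7a, was lower (background 3.79%). After Benjamini-Hochberg adjustment over all genes tested, 0 members passed 0.05 in either direction (background 0.011% higher and 0.0331% lower), and the smallest adjusted p of a member was 0.297. The DESeq2 Wald test called 3 members after adjustment, Rpl26, Rpl27 and Rpl39, all higher, where it called 0.332% of all genes higher and 0.564% lower. Before adjustment, with a p under 0.05, it called 43 members higher and 1 lower, against 4.23% and 5.02% of all genes. With 3 libraries against 3, an exact permutation test of 1 gene cannot give a p below 0.1.

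Of the 31 tested 40S genes, 26 were higher without overlap, 15 had an unadjusted p under 0.05 in edgeR and the median log2 fold change was 0.78. Of the 47 tested 60S genes, 24 were higher without overlap, 9 had such a p and the median was 0.62. The summed 40S counts were 0.757 ± 0.0216 times the summed 60S counts in Control, 0.806 ± 0.0149 times in DSS and 0.795 ± 0.0357 times in Indirubin (SD, n = 3 each). The DSS libraries lay above all Control libraries in this ratio, while the Indirubin libraries overlapped with both groups. The count of 24 members at an unadjusted p under 0.05, given here with the share of all genes called higher in the same fit, was 13 (2.03%) without Control-1, 7 (1.84%) without Control-3 and 10 (2.09%) without DSS-3. It was 38 (3.28%) without Indirubin-1, whose spread enters the shared fit, and 22 (2.97%) without DSS-2. Rpl7a was no longer lower at that level without Control-1. The count of members below Control without overlap was 1 without each of Control-1, Control-3, DSS-1 and DSS-3, where 12.4%, 13.9%, 13.1% and 14.9% of all genes did so.

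Seen library by library, 5 of the 6 DSS-exposed libraries stood well above Control, and Indirubin-1 lay close to Control-2. The median of the 78 genes against the Control mean, on the log2 scale, was 0.00, 0.19 and -0.13 in Control-1 to Control-3, with 41, 59 and 24 of the genes above the Control mean. It was 0.66, 0.58 and 0.87 in DSS-1 to DSS-3, with 74, 67 and 76 of the genes above the Control mean. It was 0.28, 1.01 and 0.64 in Indirubin-1 to Indirubin-3, with 56, 76 and 69 of the genes above. Indirubin-1 thus had fewer genes above the Control mean than Control-2 had. The summed CPM was 24189, 27042 and 22462 in the Control libraries, 38665, 35557 and 43459 in DSS and 27624, 46780.5 and 37126 in Indirubin, with Indirubin-1 just above Control-2.

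**Figure D2:**
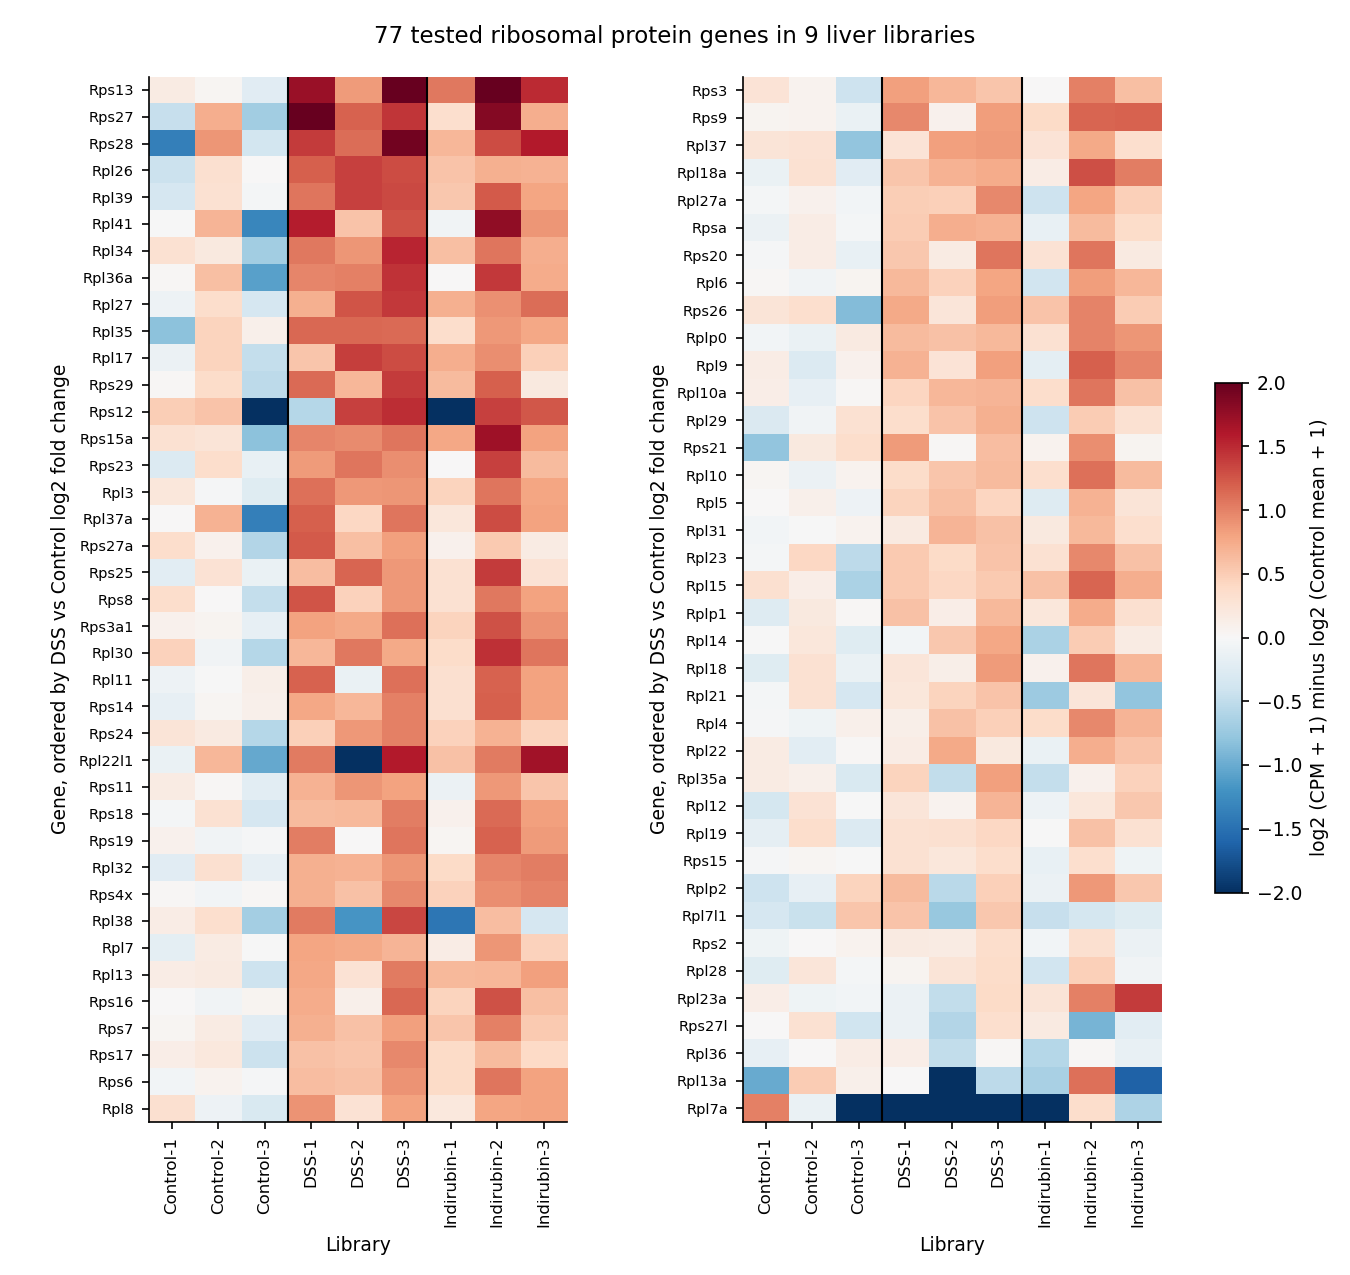
Level of 77 of the 78 tested genes in each library, as log2 (CPM + 1) minus log2 (Control mean + 1), with colours ending at -2 and 2. Genes are ordered by their fitted DSS over Control difference. Most genes lie above 0 in the DSS and Indirubin libraries. Medians over all 78 genes were taken from edgeR's log2 CPM minus its Control mean, not from the plotted scale. They were 0.00, 0.19 and -0.13 in Control-1 to Control-3, 0.66, 0.58 and 0.87 in DSS-1 to DSS-3 and 0.28, 1.01 and 0.64 in Indirubin-1 to Indirubin-3.

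Among the 40S genes, Rps13 (ENSMUSG00000090862, chr7:115930740-115933430, minus strand, GRCm39 as in the table), whose protein lies near the subunit interface, had the smallest p against Control in both comparisons. It was at 59.5, 54.2 and 44.8 CPM in Control, 176, 95.9 and 223 in DSS and 110.4, 307 and 151 in Indirubin. All 6 DSS-exposed libraries lay above all Control libraries. The log2 difference was 1.64 ± 0.46 for DSS over Control (SE, edgeR adjusted p = 0.297) and 1.84 ± 0.46 for Indirubin over Control (edgeR adjusted p = 0.102). In the DESeq2 Wald test its adjusted p was 0.0632 and 0.00366.

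Rps27 (ENSMUSG00000090733, chr3:90119829-90120958, minus strand), a zinc finger protein of the 40S subunit, was at 56.8, 130.02 and 48.1 CPM in Control, 318, 179 and 212 in DSS and 99.2, 282 and 130.3 in Indirubin. The DSS libraries lay above Control and the Indirubin libraries overlapped with it, with log2 differences of 1.59 ± 0.49 and 1.12 ± 0.48 (edgeR adjusted p = 0.393 and 0.401). Rps27rt, a retrogene of like sequence outside the symbol rule, was at 150.2 to 176 CPM in Control, 175 to 264 in DSS and 195 to 572 in Indirubin. Rps27l, a paralog known as a p53 target, was at 158, 194 and 119.5 CPM in Control, 144, 104 and 198 in DSS and 179, 82.4 and 136 in Indirubin. The groups overlapped for Rps27l, with a log2 difference of -0.08 ± 0.41 for DSS over Control that was 0.12 without Control-2 and 0.13 without DSS-2.

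Per kilobase of the gene length in the deposited table, Rps3a1, Rps15 and Rps2 had the highest mean levels of the 40S genes, at 906, 835 and 737 CPM per kb. For many members this length exceeds that of the coding transcript in GENCODE M21 (2451 against 560 bases for Rps18). The order therefore depends on the length used. Rps3a1 was at 595, 583 and 499.6 CPM in Control, 977, 951 and 1198 in DSS and 764, 1353 and 1049 in Indirubin. Both DSS-exposed groups lay above Control for Rps3a1, by 0.90 ± 0.38 and 0.92 ± 0.38 on the log2 scale (edgeR adjusted p = 0.671 and 0.369). Rps2, a protein at the mRNA entry site, and Rps15, a protein of the 40S head, had the narrowest spread over the 9 libraries, with an SD of log2 CPM of 0.172 and 0.193. Rps2 was at 1183, 1260.5 and 1325 CPM in Control, 1421, 1401 and 1599.9 in DSS and 1214, 1574 and 1155 in Indirubin. Rps15 was at 475, 496 and 481 CPM in Control, 598, 565 and 616 in DSS and 439, 613 and 455 in Indirubin. The DSS libraries of both lay above Control with small log2 differences of 0.23 ± 0.37 and 0.29 ± 0.35, and the Indirubin libraries overlapped with Control.

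Rps6, a substrate of S6 kinase downstream of mTORC1, was at 498, 547 and 511 CPM in Control, 799, 776 and 966 in DSS and 677, 1094 and 909 in Indirubin. Neither DSS-exposed group overlapped with Control for Rps6, with log2 differences of 0.71 ± 0.37 and 0.79 ± 0.37 (edgeR adjusted p = 0.807 and 0.46). Rpsa, also known as a laminin receptor, was at 742 ± 70.3 CPM in Control, 1164 ± 91.7 in DSS and 927 ± 244 in Indirubin (SD, n = 3 each). Its DSS libraries lay above Control and its Indirubin libraries overlapped with Control. Rps27a, made as a fusion with ubiquitin, was at 165, 137 and 86.3 CPM in Control, 304, 198 and 229 in DSS and 138, 186 and 146 in Indirubin. Each DSS library of Rps27a lay above every library of the other groups, with log2 differences of 0.91 ± 0.38 for DSS over Control and -0.64 ± 0.38 for Indirubin over DSS (edgeR adjusted p = 0.671 and 0.723). Rps12 had one of the widest spreads, with an SD of log2 CPM of 2.00. Its level was 102, 107 and 6.64 CPM in Control, 48.1, 187 and 202 in DSS and 3.72, 186 and 171 in Indirubin, low in Control-3 and Indirubin-1.

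Among the 60S genes, Rpl26 (ENSMUSG00000060938, chr11:68792409-68797815, plus strand), whose protein lies near the exit tunnel and is also known to bind p53 mRNA, separated all 3 groups. It was at 284, 474 and 385 CPM in Control, 873, 982 and 945 in DSS and 568, 626 and 619 in Indirubin. DSS was highest and Indirubin lay between the other groups, with no overlap. The log2 difference was 1.29 ± 0.37 for DSS over Control, 0.66 ± 0.36 for Indirubin over Control and -0.63 ± 0.36 for Indirubin over DSS (edgeR adjusted p = 0.316, 0.567 and 0.714). In the DESeq2 Wald test the adjusted p for DSS over Control was 0.00252 and that for Indirubin over DSS 0.389.

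Rpl39 (ENSMUSG00000079641, chrX:36346173-36349055, minus strand), a small protein of the exit tunnel, was at 118, 184 and 146 CPM in Control, 315, 387 and 376 in DSS and 217, 352 and 258 in Indirubin. Both DSS-exposed groups lay above Control, by 1.26 ± 0.37 and 0.88 ± 0.37 on the log2 scale (edgeR adjusted p = 0.36 and 0.37, DESeq2 Wald adjusted p = 0.0246 for DSS over Control). Its copy Rpl39l, known from male germ cells, had 1 count in all libraries together.

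Rplp0, Rplp1 and Rplp2 form the acidic stalk, which recruits elongation factors. Rplp1, Rpl36 and Rplp0 had the highest levels of the 60S genes per kilobase of the same gene length, at 1606, 1056 and 730.4 CPM per kb. Rplp0 was at 827, 780.1 and 969 CPM in Control, 1328, 1292 and 1349 in DSS and 1059, 1714 and 1586 in Indirubin, and neither DSS-exposed group overlapped with Control (log2 differences 0.62 ± 0.38 and 0.76 ± 0.38, edgeR adjusted p = 0.875 and 0.507). Rplp1 was at 533, 736 and 654 CPM in Control, 966, 702 and 1001 in DSS and 748, 1069.9 and 803 in Indirubin, with overlap between DSS and Control and none between Indirubin and Control. Rplp2 was at 154, 184 and 282 CPM in Control, 319.6, 143 and 289.8 in DSS and 191, 379.6 and 303 in Indirubin, with overlap throughout. Rpl36, which had the narrowest spread of the 60S genes (SD of log2 CPM 0.256), was at 384, 436 and 478 CPM in Control, 474, 307 and 438 in DSS and 293, 438 and 391 in Indirubin. The groups overlapped for Rpl36, with log2 differences of -0.09 ± 0.36 for DSS over Control, which was 0.086 without DSS-2, and -0.21 ± 0.36 for Indirubin over Control. The very short protein Rpl41 was at 318, 516 and 129 CPM in Control, 958, 479 and 782 in DSS and 305, 1100.5 and 596 in Indirubin, with overlap between the groups.

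The 5 members with a fitted level below Control in DSS were Rpl7a, Rpl13a, Rpl36, Rps27l and Rpl23a. The difference of Rpl23a, -0.03 ± 0.41 on the log2 scale, was above 0 without Control-1, DSS-1 or DSS-2, at 0.17 in the last case. Rpl7a (ENSMUSG00000062647, chr2:26800776-26803330, plus strand) had 85, 43 and 2 counts in Control, 10, 0 and 4 in DSS and 0, 130 and 63 in Indirubin. The groups overlapped and DSS-2 and Indirubin-1 were at 0. The log2 difference of -3.91 ± 1.30 for DSS over Control (edgeR adjusted p = 0.478) lay between -5.08 and -2.92 when each library was left out in turn. Its pseudogene Rpl7a-ps5 was at 28.2 to 87.9 CPM in Control, 35.2 to 91.6 in DSS and 37.2 to 60.7 in Indirubin. Rpl13a, known for its part in silencing inflammatory mRNAs, had 7, 24 and 13 counts in Control, 25, 0 and 21 in DSS and 10, 79 and 10 in Indirubin, and its groups overlapped.

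**Figure D3:**
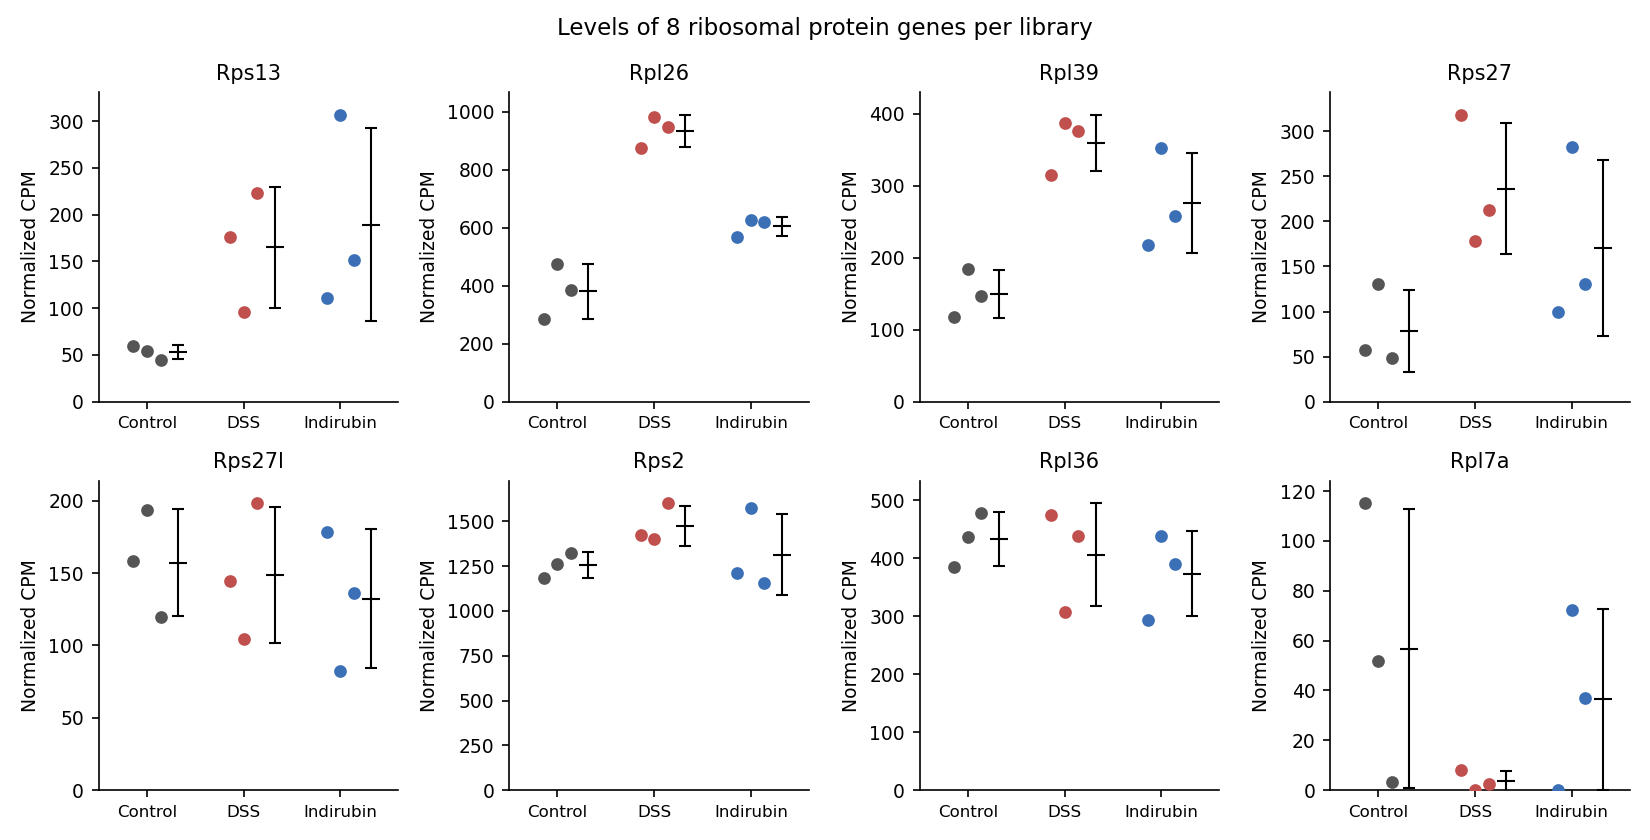
CPM per library of 8 ribosomal protein genes (points), with the mean and SD of each group (n = 3; a lower bar end under 0 is not drawn). Rps13, Rpl26 and Rpl39 lie above Control in every DSS and Indirubin library, Rps27 and Rps2 in every DSS library, and Rps27l, Rpl36 and Rpl7a overlap.

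Indirubin was compared with Control for the state of the liver under DSS and the compound together. It shares the Control libraries with the comparison above. Of the 78 genes, 72 had a fitted level above Control (background 54.8%). For 31 all Indirubin libraries lay above all Control libraries (background 10.7%) and for 0 all lay below (background 8.93%). The median log2 fold change of the members was 0.71 and that of all genes 0.11, which became 0.83 and 0.26 when libraries were scaled by nuclear library size alone. In edgeR's test 18 members were higher at an unadjusted p under 0.05 (background 4.9%) and 0 lower (background 5.62%). Under nuclear library size alone 43 were higher at that level (6.41% of all genes) and 55 without overlap (14.3% of all genes). After adjustment 0 members passed 0.05 (background 0.199% higher and 0.309% lower), and the smallest adjusted p was 0.102. The DESeq2 Wald test called 8 members after adjustment, all higher, among them Rps3a1, Rps4x, Rps6, Rps9, Rps13, Rps15a and Rpl27, where it called 2.65% of the 3248 genes it gave an adjusted p higher and 4.71% lower. Before adjustment, with a p under 0.05, it called 40 members higher and 0 lower, against 7.18% and 6% of all genes.

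For the 40S genes the median was 0.75, with 10 of 31 at an unadjusted p under 0.05, and for the 60S genes it was 0.66, with 8 of 47. The count of 18 members, with the share of all genes called higher in the same fit, was 4 (3.92%) without Control-1, 1 (4.2%) without Control-3 and 11 (6.8%) without DSS-2. It was 39 (5.76%) without Indirubin-1, 3 (3.55%) without Indirubin-2 and 11 (3.49%) without Indirubin-3. The number above Control without overlap was 59 (all genes 20.5%) without Indirubin-1, and 2 (all genes 12.5%) members lay below Control without overlap when Indirubin-2 was left out. Rps13, as the only member, passed an edgeR adjusted p of 0.05 without Indirubin-1, where 1.09% of all genes were called higher and 2.27% lower. The median of the members ran from 0.47 to 0.82 over these fits.

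Rps15a and Rpl30 were among the members of smallest p after Rps13. Rps15a, a small 40S protein, was at 165, 160.1 and 74.7 CPM in Control, 263, 257 and 281 in DSS and 229, 435 and 234 in Indirubin. No DSS or Indirubin library of Rps15a lay below the highest Control library, and the log2 difference of Indirubin over Control was 1.17 ± 0.41 (edgeR adjusted p = 0.26). Rpl30, a 60S protein that binds RNA kink-turns, was at 200.3, 138 and 97.9 CPM in Control, 232, 304 and 247 in DSS and 189, 402 and 307 in Indirubin, with a log2 difference of 1.04 ± 0.40 (edgeR adjusted p = 0.332) and with Indirubin-1 below Control-1.

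The 6 members with a fitted level below Control in Indirubin were Rpl7a, Rpl21, Rpl7l1, Rps27l, Rpl36 and Rpl38. Of these, Rpl7a lay above Control without Control-1 (log2 difference 0.38), Rpl7l1 without Control-3 (0.027) and Rpl38 without Control-2 or Indirubin-1 (0.055 and 0.21). Rpl21, which has 15 pseudogene rows, was at 171, 217 and 138 CPM in Control, 205, 239.7 and 261 in DSS and 105, 208 and 100.5 in Indirubin. Its Indirubin libraries overlapped with both other groups, and the log2 difference was -0.34 ± 0.39 for Indirubin over Control and -0.77 ± 0.39 for Indirubin over DSS (edgeR adjusted p = 0.889 and 0.63).

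Indirubin was compared with DSS for what the compound added to DSS, and here the members' differences centred near 0. It shares its libraries with the comparisons above. Of the 78 genes, 27 had a higher fitted level in Indirubin, where 55.6% of all genes did, with a median log2 fold change of -0.10 that became 0.01 under nuclear library size alone and 0.02 for members with at least 10 counts in every library. It was 0.05 without Indirubin-1, 0.00 without DSS-3, -0.19 without DSS-2 and -0.30 without Indirubin-2. The median of all genes was 0.12. In edgeR's test 2 members, Rpl7a and Rpl23a, were higher at an unadjusted p under 0.05 (background 4.64%) and 0 lower (background 3.99%). After adjustment 0 members passed 0.05 in edgeR (background 0.0221% higher and 0.0221% lower) and 0 in the DESeq2 Wald test (0.741% of all genes higher and 0.675% lower). Without adjustment the Wald test called 2 members higher and 1 lower, against 6.69% and 4.45% of all genes. The count of 2 higher members in edgeR's test was 0 (all genes 4.42%) without DSS-2, 1 without each of DSS-1, DSS-3, Indirubin-2 and Indirubin-3 (all genes 6.08%, 7.39%, 3.71% and 3.26%), and 3 (all genes 4.74%) without Indirubin-1. Its count of lower members was 1 (all genes 3.7%) without DSS-2 and 2 (all genes 2.94%) without Indirubin-2.

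Without overlap, 1 member, Rpl15, was higher in Indirubin (background 9.98%) and 3, Rpl26, Rpl35 and Rps27a, were lower (background 6.12%). With 2 libraries against 3, more genes of any kind do not overlap, so the share of all genes is given anew. The number lower was 25 (all genes 9.85%) without Indirubin-2, 13 (all genes 11.6%) without DSS-1 and 7 (all genes 12.2%) without DSS-2. The number higher was 11 (all genes 18.2%) without Indirubin-1 and 2 (all genes 17%) without DSS-3. Rpl23a, a 60S protein at the tunnel exit, was at 89.3, 77.05 and 78.01 CPM in Control, 75.3, 57.5 and 106 in DSS and 97.97, 165 and 216 in Indirubin. Indirubin-1 lay within the DSS range and the other Indirubin libraries above it, with a log2 difference of 1.00 ± 0.41 for Indirubin over DSS (edgeR adjusted p = 0.469). Rpl15, a 60S core protein, was at 194, 169.7 and 99.6 CPM in Control, 222, 206 and 221 in DSS and 232, 346 and 256 in Indirubin, and its log2 difference was 0.36 ± 0.37 (edgeR adjusted p = 0.935). Rpl4, whose protein reaches into the exit tunnel, differed by 0.29 ± 0.37 on the log2 scale, with overlap. Rpl38, known for its part in the translation of Hox mRNAs, was at 176, 199.8 and 97.9 CPM in Control, 326, 69.5 and 398 in DSS and 57.05, 242 and 125 in Indirubin, with overlap throughout.

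Paralogs known from other tissues had few counts. Rpl3l, the heart and skeletal muscle copy of Rpl3, had 9, 0 and 0 counts in Control, 0, 0 and 0 in DSS and 0, 0 and 31 in Indirubin. Rpl3 was at 319.9 ± 52.4 CPM in Control, 621 ± 59.7 in DSS and 555 ± 119 in Indirubin (SD, n = 3 each, as in the following values), and neither DSS-exposed group overlapped with Control. Rpl36al had 13 counts, all in Indirubin-2, and Rpl36a was at 117 ± 61.7 CPM in Control, 263 ± 50.3 in DSS and 209.9 ± 99.6 in Indirubin, without overlap between DSS and Control. Rpl10l had 0 counts, and Rpl10 was at 619 ± 42.7 CPM in Control, 891 ± 84.5 in DSS and 1025 ± 282 in Indirubin, with both DSS-exposed groups above Control. Rpl22l1, which Rpl22 is known to repress, had 12, 24 and 5 counts in Control, 47, 0 and 86 in DSS and 22, 68 and 102 in Indirubin. Rpl22 was at 208 ± 26.8 CPM in Control, 274 ± 68.7 in DSS and 281 ± 80.8 in Indirubin, and both genes overlapped between the groups. Rpl7 was at 450.2 ± 56.5 CPM in Control, 755 ± 30.3 in DSS and 652 ± 169 in Indirubin and Rpl7l1, a nucleolar relative, at 51.4 ± 21.6 CPM in Control, 60.8 ± 26.7 in DSS and 40.2 ± 3.01 in Indirubin. The DSS libraries of Rpl7 lay above Control, while Rpl7l1 overlapped. Rps4x, the X-linked 40S gene, was at 377 ± 11.9 CPM in Control, 639.98 ± 87.01 in DSS and 664 ± 125 in Indirubin, without overlap with Control in either group. Its relative Rps4l is listed as a transcribed processed pseudogene and is no member.

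Ribosome components that the symbol rule leaves out were also read. Rack1, a scaffold on the 40S head, was at 341 ± 30.5 CPM in Control, 657 ± 74.4 in DSS and 646 ± 92.6 in Indirubin (SD, n = 3 each), with both DSS-exposed groups above Control (log2 differences 0.94 ± 0.35 and 0.92 ± 0.35, edgeR adjusted p = 0.579 and 0.326). Fau, which encodes a ubiquitin-like protein fused to a 40S protein, was at 331 ± 57.5 CPM in Control, 698 ± 178 in DSS and 614 ± 214 in Indirubin (SD, n = 3 each), and its Indirubin libraries overlapped with Control.

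Lists around the ribosome were set beside the members, in the order DSS over Control, Indirubin over Control and Indirubin over DSS. Over all genes tested the median log2 fold changes were -0.02, 0.11 and 0.12, with 2.84%, 4.9% and 4.64% higher and 3.79%, 5.62% and 3.99% lower at an unadjusted p under 0.05 in edgeR, against which the counts of each list are to be read. Translation factors and other TOP mRNAs (23 genes, Rack1 and Fau among them) had median log2 fold changes of 0.59, 0.89 and 0.26, with 6, 14 and 3 genes of 23 higher and 0 lower in each at that p. Npm1, a nucleolar chaperone, differed by 1.82 ± 0.45 and Pabpc1, the poly(A)-binding protein gene, by 1.35 ± 0.36 for Indirubin over Control (edgeR adjusted p = 0.1 and 0.124). Hnrnpa1, a splicing regulator, differed by 1.61 ± 0.56 and Eif3a, a subunit of initiation factor eIF3, by 0.93 ± 0.37 for Indirubin over DSS (edgeR adjusted p = 0.341 and 0.46).

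Mitochondrial ribosome genes (74 of 78 tested) had medians of 0.12, 0.09 and -0.15, with 1, 0 and 1 higher and 0, 1 and 2 lower, of 74, at an unadjusted p under 0.05. Mrpl52 had the smallest p of the list, for Indirubin over DSS, at -1.64 ± 0.52 (edgeR adjusted p = 0.296). Ribosome biogenesis genes (38 of 43 tested) had medians of 0.02, 0.23 and 0.45, with 0, 1 and 3 higher and 1, 1 and 1 lower, of 38. Nop56, a core protein of box C/D snoRNPs, differed by -1.94 ± 0.53 for Indirubin over Control and Ncl, the gene of nucleolin, by 0.95 ± 0.37 for Indirubin over DSS (edgeR adjusted p = 0.129 and 0.427).

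Regulators of mTOR and of TOP mRNAs (24 of 27 tested) had medians of 0.02, 0.32 and 0.52, with 0, 3 and 2 higher and 3, 3 and 1 lower, of 24. Larp1, which binds the TOP stretch, lay below Control without overlap in both DSS-exposed groups, by -0.95 ± 0.40 and -0.91 ± 0.40 (edgeR adjusted p = 0.671 and 0.416). Ddit4, an inhibitor of mTORC1, was at 24.4, 0 and 23.2 CPM in Control, 13.6, 27.6 and 43.2 in DSS and 26.04, 159 and 346 in Indirubin. Indirubin-1 lay near Control-1 and Control-3 for Ddit4, and the other Indirubin libraries were high. Its log2 difference of 3.51 ± 0.92 for Indirubin over Control (edgeR adjusted p = 0.116) was 2.56 without Indirubin-3 and 2.90 without Control-2, the library at 0. Rps6kb2, an S6 kinase, differed by -2.28 ± 0.68 for Indirubin over Control (edgeR adjusted p = 0.172).

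**Figure D4:**
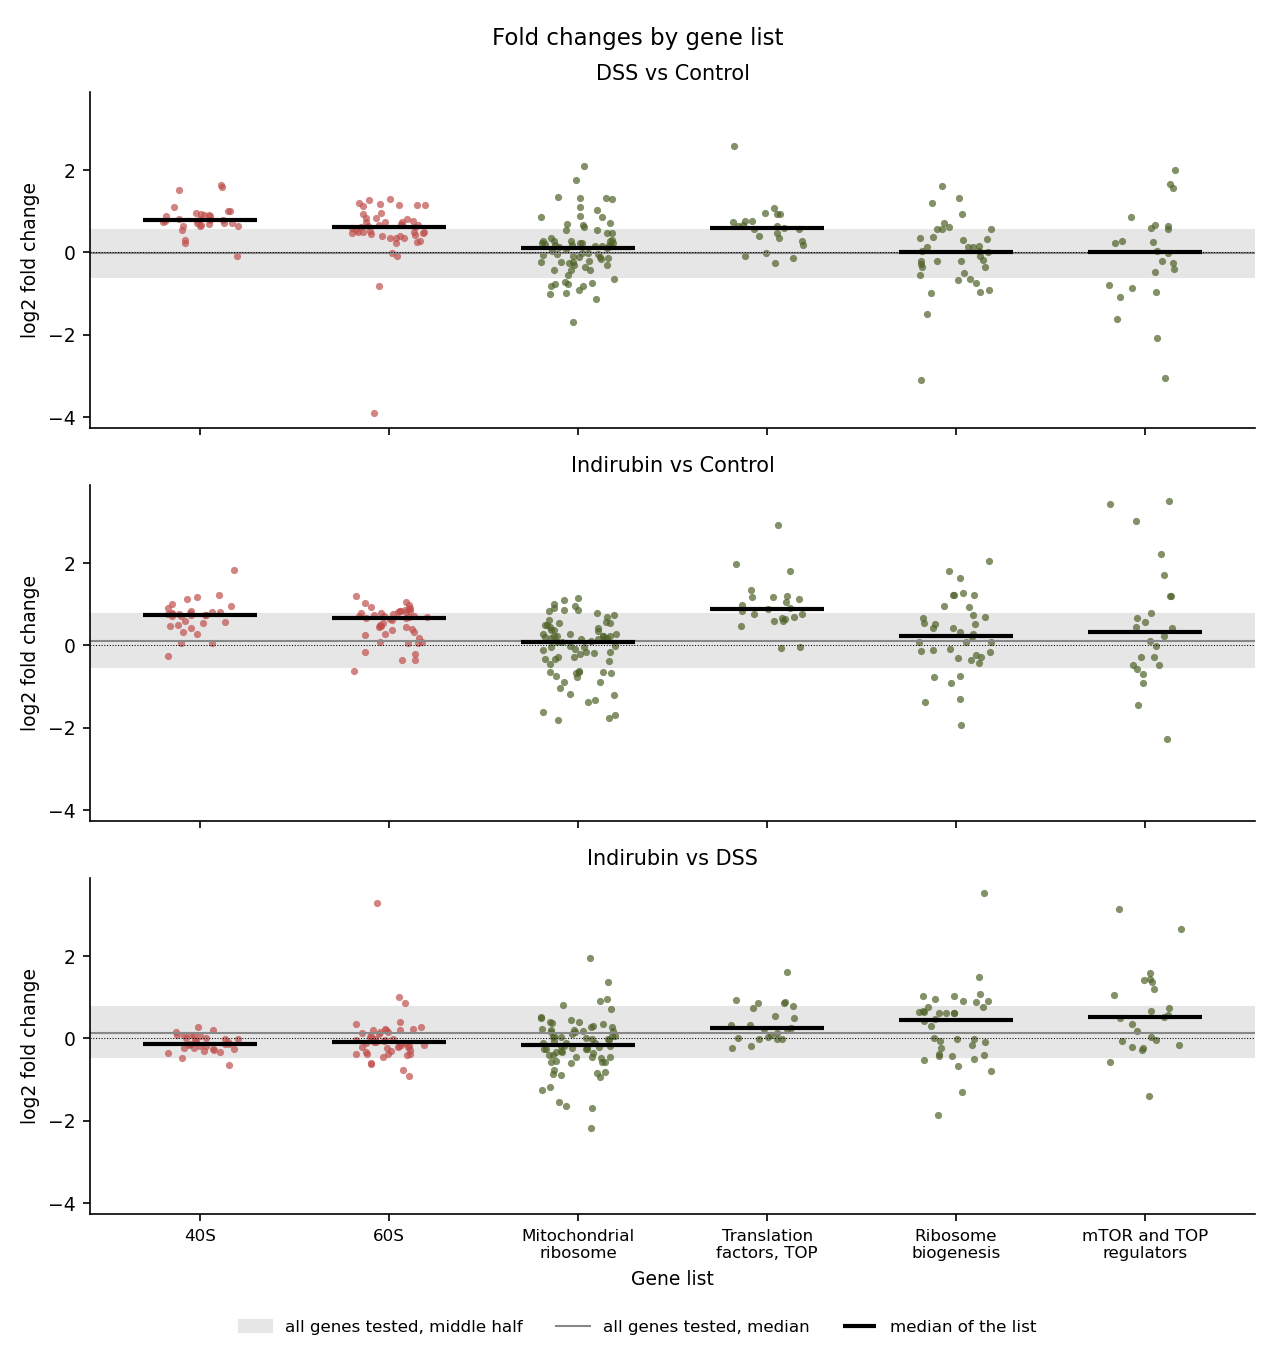
Fitted log2 fold change of each tested gene by list, in the 3 comparisons. Points are genes, with the median of each list, and the line and band give the median and the middle 50% of all genes tested. The medians of the 40S and 60S genes lie at 0.78 and 0.62 for DSS over Control, 0.75 and 0.66 for Indirubin over Control and -0.13 and -0.10 for Indirubin over DSS, where the median of all members became 0.01 under nuclear library size alone.

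Gene properties that the rule did not use were set beside the differences, over the 78 members, which share libraries and depth. The rank correlation of the DSS over Control log2 fold change was -0.05 with the mean level, -0.27 with coding length and -0.19 with transcript GC content (GENCODE M21). Over all genes tested these were 0.02, -0.15 and -0.02. For coding length the correlation was -0.13 over members and 0.02 over all genes in Indirubin over Control. In Indirubin over DSS it had the other sign, at 0.27 and 0.17. The 12 tested members with a pyrimidine run at an annotated start had a median log2 fold change of 0.62 for DSS over Control and 0.59 for Indirubin over Control. The 46 tested members without it had 0.68 and 0.71.

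Markers of other cells moved with the groups in some lists. Neutrophil genes (3 of 11 tested) summed to 8.12, 21.7 and 24.9 CPM in the Control libraries, 134, 77.9 and 101 in DSS and 193, 1717 and 620.3 in Indirubin, with 9, 8 and 8, then 7, 9 and 5, then 4, 1 and 3 of the 11 genes at 0. Pancreatic acinar genes (7 of 20 tested) summed to 67.7 to 183 CPM in Control and 0 to 22.6 in DSS, and to 73.2, 11591 and 11635 in Indirubin-1 to Indirubin-3, with 14, 1 and 0 of the 20 genes at 0. Hepatocyte genes (12 of 13 listed tested) summed to 80208 to 132441 CPM in Control, 68666 to 139248 in DSS and 59153 to 73943 in Indirubin, where every library lay below Control. Stellate cell and fibroblast genes (9 of 9 tested) summed to 754 to 1236, 448 to 672 and 632 to 1266 CPM, with every DSS library below Control. Cholangiocyte genes (2 of 6 tested) summed to 25.3 to 38.2, 60.1 to 89.9 and 32.2 to 56.2 CPM, with every DSS library above Control. Endothelial genes (8 of 8 tested), at 259 to 484, 168 to 323 and 344 to 469.8 CPM, and proliferation genes (3 of 7 tested), at 33.8 to 131, 35.2 to 47.9 and 74.6 to 104 CPM, overlapped between Control and both other groups. Erythroid genes (5 of 7 tested) summed to 777 to 1826 CPM in Control, 999 to 1733 in DSS and 1131 to 4588 in Indirubin. Macrophage and Kupffer cell genes (12 of 13 tested) summed to 915 to 1513, 1169 to 1404 and 1465 to 2087 CPM, and lymphocyte genes (6 of 14 tested) to 196 to 244, 218 to 431 and 114 to 299 CPM. The part of these cells, of rRNA and of mitochondrial transcripts in the differences of the ribosomal protein genes was not tested.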

How the data were processed

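The authors ran a DNBSEQ instrument on libraries that each took 400 ng of liver RNA, purified with the RNeasy Plus Micro Kit. Per the labels the reads were aligned to mouse (build GRCm39 in the submitters' processing notes), and the aligner, counter, annotation and strand setting are not given in the sources used here. The deposited gene table holds raw counts, which were used, and FPKM values that the authors scaled by gene length and library size, which were not. The authors also deposited log2 fold changes and p-values of their own comparisons, and gene lists, none of which was used. Members and lists were chosen with earlier results of these data known.

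Nuclear counts of all 9 libraries were filtered by filterByExpr at its defaults (minimum count 10, minimum total 15), scaled by TMM on the counts of the genes kept, and tested in one fit by edgeR 4.0.16 (glmQLFit, glmQLFTest; R 4.3.3), with Benjamini-Hochberg adjustment. The script was tested on simulated data. DESeq2 1.42.0, other scalings and filters, a replicate block and leaving out each library were alternatives. The SE of a log2 difference was not fitted directly, and is the size of the difference divided by the square root of edgeR's F statistic. No overlap means that every library of a group lay beyond every library of the other. Named genes were those of smallest p each way per comparison, of highest level per length, of widest or narrowest spread, fixed members such as Rps6 and Rpsa, paralog pairs, Rack1 and Fau, and the smallest p-values of each related list. Rpl24, Rps10, Rpl17, Rpl27, Rpl35 and Rps9 and the retrogene and pseudogene rows were named after their values were seen. Counts limit the precision of genes such as Rpl7a. Some genes that this rule names are not reported here.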

Additional observations from a re-analysis of the deposited data

How the results depend on the processing

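Shares in parentheses are those of all genes in the same fit. The members' median kept its direction for DSS over Control (0.58 to 0.77 without each library in turn) and Indirubin over Control (0.47 to 0.82), and not for Indirubin over DSS (-0.30 to 0.05). For members at an unadjusted p under 0.05, leaving out a library gave 7 to 38 higher (1.84% to 3.52%) and 0 to 1 lower (2.77% to 6.02%) for DSS over Control, 1 to 39 higher (3.49% to 6.8%) for Indirubin over Control, and 0 to 3 higher (3.26% to 7.39%) and 0 to 2 lower (2.15% to 5.55%) for Indirubin over DSS. After adjustment it gave 0 to 0, 0 to 1 (Rps13 without Indirubin-1) and 0 to 0 in these comparisons. Of all genes, the fit without Indirubin-1 called the largest shares, 0.148%, 1.09% and 0.808% higher and 0.266%, 2.27% and 1.39% lower. Without overlap it gave 50 to 63 higher (8.9% to 12.9%) and 0 to 1 lower (10.5% to 14.9%), then 31 to 59 (14.9% to 20.5%) and 0 to 2 (11.8% to 15.8%), then 1 to 11 (13.4% to 18.3%) and 3 to 25 (8.94% to 12.2%). The 63 higher for DSS over Control, without DSS-2, stood beside 12.9%. The ratios of the summed share were 1.47 to 1.75, 1.46 to 1.72 and 0.901 to 1.09. As a share of all counts these ratios were 2.63, 3.24 and 1.23. At least 10 counts in every library, which tests fewer genes, gave 38 higher (5.41%) and 0 lower (5.41%) for DSS over Control, 47 higher (10.1%) with 1 after adjustment (Rps13, where 33 of 3048 genes were higher) for Indirubin over Control, and 1 higher (7.71%) for Indirubin over DSS. With no filter, 1 member passed after adjustment in each comparison (Rpl7a lower, 0.206%; Rps13 higher, 0.508%; and Rpl7a higher, 0.403%). The 6 libraries compared alone gave 46 higher (3.54%) and 0 lower (4.26%) for DSS over Control. The DESeq2 Wald test gave 43 and 40 higher against Control, 3 and 8 after adjustment, and 1 lower (Rpl26) for Indirubin over DSS, while of all genes it called 4.23% and 7.18% higher against Control, 0.332% and 2.65% of those with an adjusted p after adjustment, and 4.45% lower for Indirubin over DSS. For Indirubin over Control, nuclear library size alone gave 43 higher (6.41%) and 55 without overlap (14.3%), and DESeq2 size factors 30 higher (5.55%). For Indirubin over DSS, nuclear library size alone left 1 lower without overlap (4.18%), DESeq2 size factors 2 higher (10.7%), and protein-coding genes alone, chosen after seeing the data, 1 lower at an unadjusted p under 0.05 (Rpl21, 4.37%). Of the 78 members tested, the direction turned without 1 library for 3 in DSS over Control, 10 in Indirubin over Control and 44 in Indirubin over DSS. Among them were Rps27l in DSS over Control (between -0.36 and 0.13, above 0 at 0.12 without Control-2 and without DSS-2), Rpl36 in DSS over Control (between -0.19 and 0.086, above 0 without DSS-2), Rpl23a in DSS over Control (highest 0.17, without DSS-2), Rps2 and Rps15 in Indirubin over Control (to -0.095 and -0.13 without Indirubin-2) and Rpl7l1 in Indirubin over Control (between -0.53 and 0.027, above 0 without Control-3). Except where construction shows it, the cause was not tested.

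Deviations of same-numbered libraries from their group means correlated at only -0.0321 to 0.0285, so no pairing by replicate number was seen in these values. Whether the design paired libraries cannot be told from this. With a replicate block, 21 members were higher for DSS over Control (2.19%), 10 for Indirubin over Control (4.04%) and 2 for Indirubin over DSS (4.05%), where 1 was lower (Rpl21, 3.95%).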
